A study of Homo sapiens with 12 samples.

Results

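The CCN family comprises 6 genes, CCN1 to CCN6, and all 6 were found by Ensembl gene identifier among the 60617 genes of each deposited table. They were followed in A549 cells, an established human lung adenocarcinoma line, in 3 groups of 4 libraries. Cells of the siYAP/TAZ#1 and siYAP/TAZ#2 groups carried either of 2 siRNA combinations against YAP and TAZ, and cells of the siCo group carried a non-targeting control siRNA. All groups were of the same line, were transfected with siRNA and were harvested 24 hours after transfection, so that the knockdown is transient and partial. The replicates are described as biological, with nothing further on separate cultures, so p-values measure the spread between these libraries.

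CCN proteins are secreted into the extracellular matrix, where they signal rather than build structure, and are therefore called matricellular. They are assembled from an insulin-like growth factor binding protein module, a von Willebrand factor type C module, a thrombospondin type 1 module and a C-terminal cystine knot module, and they act by binding integrins, heparan sulfate proteoglycans and growth factors. CCN1 and CCN2 are textbook targets of YAP and TAZ, transcriptional coactivators that bind DNA through TEAD factors and that the Hippo kinases hold out of the nucleus. In lung epithelium and fibroblasts CCN2 is best known as a profibrotic factor downstream of TGF-beta.

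Library totals ran from 29617111 to 38264296 estimated counts, and 21581 genes passed a filter on low counts and were tested. Levels are given in CPM, counts relative to library totals after TMM scaling, and as TPM where genes are compared with each other, and changes as log2 values ± standard error from edgeR's quasi-likelihood test, and a gene was called at an adjusted p under 0.05. The targets were depleted in all 8 treated libraries. YAP1 averaged 18.7 ± 1.43, 17.4 ± 1.19 and 121 ± 4.02 CPM in siYAP/TAZ#1, siYAP/TAZ#2 and siCo (SD, n = 4 each), and WWTR1, the gene of TAZ, 32.8 ± 1.14, 32.4 ± 2.37 and 240.4 ± 9.7 CPM. All 8 epithelial and A549 markers were at 1 TPM or more in every treated library and 7 of them in every siCo library, whereas 6 of 8 alveolar markers, the surfactant genes SFTPA1, SFTPB and SFTPC among them, stayed under 1 TPM throughout.

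The family answered in different directions. CCN1 and CCN2 fell with both combinations, CCN3 rose with both, CCN5 fell with siYAP/TAZ#2, CCN4 did not pass the test at counts of 7 to 20, and CCN6 was too low to be tested. Of the 5 genes tested, 2 were lower and 1 was higher with siYAP/TAZ#1, where 34.9% of all genes tested were called, 18.5% lower and 16.4% higher. With siYAP/TAZ#2, 3 were lower and 1 was higher, where 38.2% of all genes were called, 19.2% lower and 19% higher. The groups did not overlap for 3 of the 5 with siYAP/TAZ#1 and for 4 of the 5 with siYAP/TAZ#2, which held for 38.7% and 34.6% of all genes. Both comparisons use the same siCo libraries. The median change of all genes was 0.02 with either combination and became 0.20 and 0.21 with library size alone. Higher genes made up 46.9% and 49.7% of calls after TMM scaling and 75.5% and 76.2% with library size alone, while the calls on the CCN genes were the same under both scalings.

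**Figure D1:**
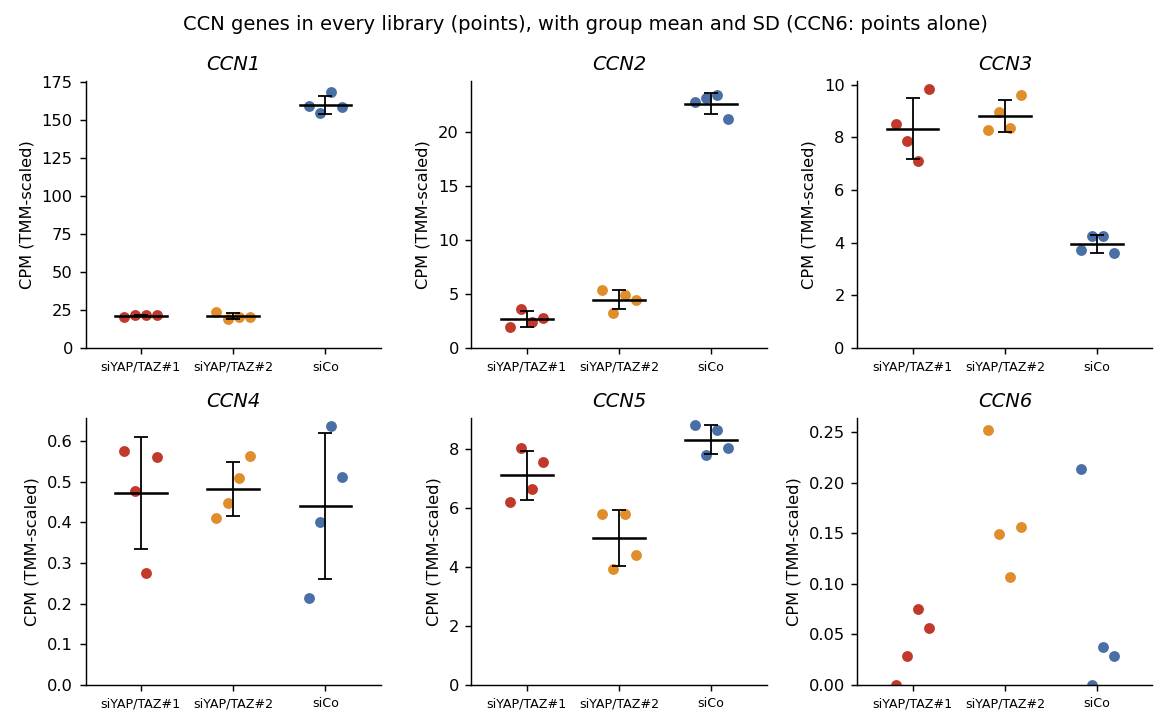
TMM-scaled CPM of each CCN gene (vertical axes from 0) in siYAP/TAZ#1, siYAP/TAZ#2 and siCo, with 1 point per library and lines for the group mean and SD (n = 4), which are left out for CCN6. For CCN1 and CCN2 all treated points lie below all siCo points, and for CCN3 they lie above. CCN5 is low in siYAP/TAZ#2 alone among the groups, and CCN4 and CCN6 lie under 1 CPM everywhere.

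CCN1 (CYR61; ENSG00000142871, chromosome 1, 85580761 to 85583962, plus strand, GRCh38) encodes an integrin ligand that supports adhesion, migration and new vessel growth. It was the most abundant member in every group. Its levels were 20.6, 21.5, 22 and 21.5 CPM in siYAP/TAZ#1 libraries, 24.0, 19.4, 20.5 and 20.3 CPM in siYAP/TAZ#2 libraries, and 159, 154, 168 and 158 CPM in siCo libraries. Every treated library was far below every siCo library, while the treated groups overlapped each other. The change was -2.90 ± 0.068 with siYAP/TAZ#1 (adjusted p = 7.67e-14) and -2.92 ± 0.069 with siYAP/TAZ#2 (adjusted p = 1.31e-13), which left 13.4% and 13.2% of the siCo level. The remaining shares of the targets themselves were 15.5% and 14.3% for YAP1 and 13.7% and 13.5% for WWTR1. Between the combinations CCN1 differed by 0.02 ± 0.067, with a 95% interval of -0.12 to 0.17 (adjusted p = 0.881). In bulk RNA, fewer cells expressing a gene and less RNA per cell cannot be told apart.

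CCN2 (CTGF; ENSG00000118523, chromosome 6, 131948176 to 131951373, minus strand) encodes connective tissue growth factor, which binds TGF-beta, BMP4 and VEGF. Its levels were 1.99, 3.66, 2.40 and 2.78 CPM in siYAP/TAZ#1 libraries, 5.36, 3.25, 4.88 and 4.47 CPM in siYAP/TAZ#2 libraries, and 22.8, 23.2, 23.4 and 21.2 CPM in siCo libraries. All treated libraries were below all siCo libraries, and the treated groups overlapped only through replicate 2 of each, the highest of siYAP/TAZ#1 and the lowest of siYAP/TAZ#2. The changes were -3.06 ± 0.158 with siYAP/TAZ#1 (adjusted p = 6.78e-10) and -2.33 ± 0.151 with siYAP/TAZ#2 (adjusted p = 6.39e-09), leaving 11.9% and 19.8% of the siCo level. These levels rest on 69 to 130 counts in siYAP/TAZ#1, 109 to 182 in siYAP/TAZ#2 and 625 to 753 in siCo libraries.

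Unlike CCN1, CCN2 differed between the combinations. It was lower with siYAP/TAZ#1 than with siYAP/TAZ#2 by -0.73 ± 0.168 (95% interval -1.09 to -0.38, adjusted p = 0.00602), 1 of 2 calls among the 5 CCN genes tested. Between the combinations 15.1% of all genes were called, 8.2% lower and 6.92% higher with siYAP/TAZ#1. A two-sided exact permutation test of the same libraries gave p = 0.0571, against a smallest possible 0.0286, and the call was lost on the deposited TPM values (-0.44 on log2(TPM + 1), adjusted p = 0.581 by limma). CCN2 averaged 0.95 and 1.65 TPM in siYAP/TAZ#1 and siYAP/TAZ#2, where adding 1 makes a log2 change smaller. With 0.1 added instead, the change was close to that on counts and the call was still lost. Without siYAP/TAZ#2 replicate 1 the number of all genes called between the combinations grew to 2846 lower and 2302 higher, against 1769 and 1493 with it, and CCN2 was called in either case. The ratio of CCN2 to CCN1 within a library does not depend on library scaling, and its log2 value averaged -3.02 ± 0.36 in siYAP/TAZ#1, -2.25 ± 0.23 in siYAP/TAZ#2 and -2.82 ± 0.07 in siCo (SD, n = 4 each). With siYAP/TAZ#2 the ratio was higher than in siCo by 0.57 (two-sided exact permutation p = 0.0286, the smallest that 4 against 4 libraries allow), and CCN2 had fallen less than CCN1. Without any 1 of the siCo libraries this difference was 0.54 to 0.60 and its exact permutation p was 0.0571. With siYAP/TAZ#1 the ratio differed from siCo by -0.20 (exact permutation p = 0.314), or by -0.36 (p = 0.0286, exact permutation) without its replicate 2. The ratio in siYAP/TAZ#1 minus that in siYAP/TAZ#2 was -0.77 (exact permutation p = 0.0571), and -0.93 (p = 0.0286, exact permutation) without replicate 2 of siYAP/TAZ#1.

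**Figure D2:**
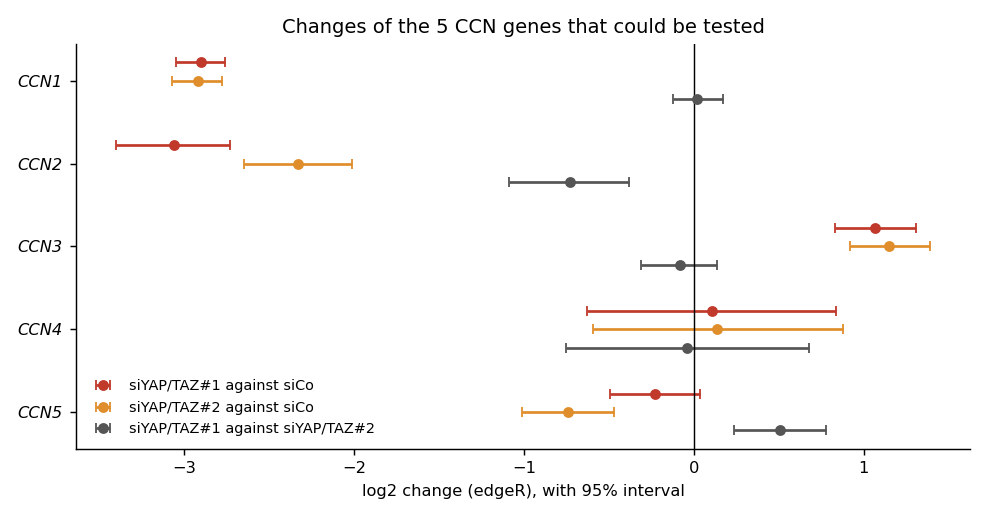
Log2 change of the 5 CCN genes tested (horizontal axis, points with 95% intervals) for siYAP/TAZ#1 against siCo, siYAP/TAZ#2 against siCo and siYAP/TAZ#1 against siYAP/TAZ#2. CCN1 and CCN2 lie left of -2 against siCo and CCN3 near 1, and CCN2 and CCN5 have intervals clear of 0 between the combinations. The intervals of CCN4 span more than 1 log2 unit.

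The promoter of CCN2 is shown because TEAD factors, through which YAP and TAZ reach DNA, bind the letters GGAATG. CCN6, a member with almost no transcript in these cells, stands beside it because the promoter source matched only CCN2 and CCN6. The CCN1 promoter was not available there, so the pair is not a chosen contrast. The windows run from 250 bases before to 50 bases after the start in RefSeq (GRCh38.p14), at chr6:131951323-131951622 on the minus strand for CCN2 and chr6:112053854-112054153 on the plus strand for CCN6. They are written 5′ to 3′, with GGAATG on either strand in capitals.
CCN2 promoter: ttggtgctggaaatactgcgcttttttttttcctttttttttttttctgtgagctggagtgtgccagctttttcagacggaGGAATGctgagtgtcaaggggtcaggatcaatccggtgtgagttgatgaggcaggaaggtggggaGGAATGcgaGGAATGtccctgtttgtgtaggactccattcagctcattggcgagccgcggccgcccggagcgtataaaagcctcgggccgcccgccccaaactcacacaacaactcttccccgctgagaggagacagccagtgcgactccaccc
CCN6 promoter: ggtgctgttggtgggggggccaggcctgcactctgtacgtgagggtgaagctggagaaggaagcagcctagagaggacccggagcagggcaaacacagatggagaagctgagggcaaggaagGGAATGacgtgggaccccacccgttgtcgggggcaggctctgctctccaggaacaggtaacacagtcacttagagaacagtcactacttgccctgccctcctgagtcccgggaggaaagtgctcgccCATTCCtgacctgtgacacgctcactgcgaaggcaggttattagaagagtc
The CCN2 window holds 3 copies of GGAATG, all on the strand of the gene, with first bases at -169, -104 and -95 from the start. The CCN6 window holds 2, of which 1 begins at -128 and the other spans the start on the opposite strand as CATTCC. Of 35116 promoters of this length, 14% hold at least 1 copy on either strand, 1.37% at least 2 and 0.128%, or 45 promoters, at least 3. A TATAAA box begins at -32 from the CCN2 start, a motif that 11.5% of promoters hold on either strand, and the CCN6 window has none. Neither window holds an AP-1 site written as TGANTCA, which 7.71% of promoters hold, or a CArG box of serum response factor, which 1.29% hold. These matches describe letters in a window and not binding.

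**Figure D3:**
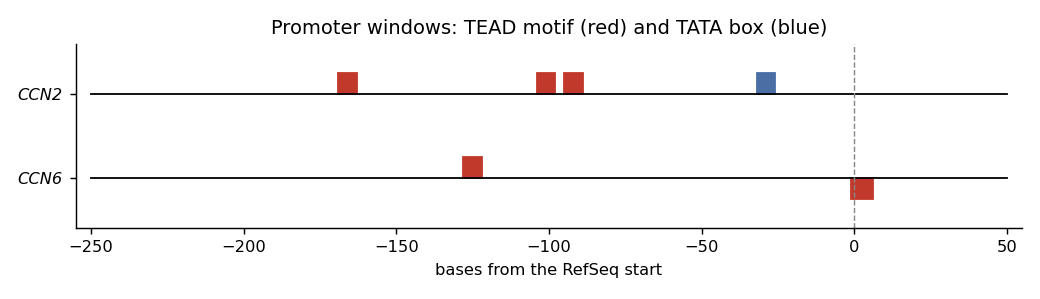
Positions of the TEAD motif (red) and the TATA box (blue) in the promoter windows of CCN2 and CCN6, in bases from the RefSeq start (horizontal axis, dashed line at the start), with boxes above the line for the strand of the gene and below it for the opposite strand. CCN2 has 3 TEAD motifs and a TATA box, CCN6 has 2 TEAD motifs.

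CCN3 (NOV; ENSG00000136999, chromosome 8, 119416306 to 119424353, plus strand) encodes a member that binds NOTCH1 and in many cells restrains growth, often opposite to CCN2. It was the sole member that rose. Its levels were 8.52, 7.88, 7.09 and 9.83 CPM in siYAP/TAZ#1 libraries, 8.29, 8.97, 8.37 and 9.6 CPM in siYAP/TAZ#2 libraries, and 3.73, 4.25, 4.27 and 3.61 CPM in siCo libraries. The lowest treated library was above the highest siCo library, and the treated groups overlapped each other. The increase was 1.07 ± 0.112 with siYAP/TAZ#1, a 2.10-fold higher level (adjusted p = 1.56e-06), and 1.15 ± 0.112 with siYAP/TAZ#2, a 2.23-fold higher level (adjusted p = 6.00e-07). In these comparisons the treated and siCo groups did not overlap, with the treated group higher, for 18% and 17% of all genes. Between the combinations CCN3 differed by -0.08 ± 0.105 (95% interval -0.31 to 0.14, adjusted p = 0.722). On log2(TPM + 1) with every gene of nonzero value in the fit, the siYAP/TAZ#1 change was 0.99 with an adjusted p of 0.0767 by limma. CCN3 is also a fibroblast gene, and the summed level of 7 fibroblast markers was 32.1 to 45.4 TPM in siYAP/TAZ#1, 24.6 to 39.3 TPM in siYAP/TAZ#2 and 16.6 to 27.0 TPM in siCo libraries. COL1A1 alone among them reached 1 TPM in every library, and COL1A2, COL3A1, PDGFRB, DCN and LUM were under 1 TPM in all 12. On counts COL1A1 changed by 0.47 ± 0.11 with siYAP/TAZ#1 and 0.09 ± 0.11 with siYAP/TAZ#2 (edgeR, adjusted p = 0.00291 and 0.561). All libraries were of the A549 line, and a part of other cells in the rise of CCN3 was not tested.

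CCN5 (WISP2; ENSG00000064205, chromosome 20, 44714844 to 44728509, plus strand) encodes the member that lacks the cystine knot module. Its levels were 6.19, 8.02, 6.62 and 7.53 CPM in siYAP/TAZ#1 libraries, 5.77, 3.93, 5.77 and 4.41 CPM in siYAP/TAZ#2 libraries, and 8.80, 7.78, 8.62 and 8.01 CPM in siCo libraries. All siYAP/TAZ#2 libraries were below all libraries of the other groups, and siYAP/TAZ#1 overlapped siCo through its replicate 2. With siYAP/TAZ#2 CCN5 fell by 0.74 ± 0.128 on the log2 scale to 59.9% of the siCo level (adjusted p = 2.26e-04). With siYAP/TAZ#1 the change was -0.23 ± 0.124 (95% interval -0.49 to 0.04, adjusted p = 0.178) and was positive on TPM (0.08 on log2(TPM + 1)). The difference between the combinations was tested directly, and CCN5 was higher with siYAP/TAZ#1 than with siYAP/TAZ#2 by 0.51 ± 0.128 (adjusted p = 0.0112; two-sided exact permutation p = 0.0286). The combinations did not overlap for 18.2% of all genes, 9.31% lower and 8.91% higher with siYAP/TAZ#1. On TPM neither the fall with siYAP/TAZ#2 (-0.20, adjusted p = 0.508 by limma) nor this difference (0.28, adjusted p = 0.972) was called. The antisense gene KCNK15-AS1 spans CCN5 on the other strand with 4 to 11, 4 to 13 and 2 to 4 estimated counts in siYAP/TAZ#1, siYAP/TAZ#2 and siCo libraries, against 132 to 288 for CCN5. Without strand information reads in any exon sequence that these genes share cannot be told apart, and whether they share any was not checked.

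On counts CCN2 and CCN5 thus differed between the combinations in opposite directions, with CCN2 lower and CCN5 higher in siYAP/TAZ#1. Neither call held on TPM, where few genes were called at all. Between the combinations 78 of all genes were lower and 39 higher on log2(TPM + 1), against 1769 and 1493 on counts. Both knockdowns left YAP1 and WWTR1 RNA at levels that differed between the combinations by 0.11 ± 0.069 (adjusted p = 0.367) and 0.02 ± 0.062 (adjusted p = 0.897). These libraries do not measure protein.

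CCN4 (WISP1; ENSG00000104415, chromosome 8, 133191039 to 133231690, plus strand), a gene first described as induced by WNT1, stood near the limit of measurement. It had 11 to 20 estimated counts in siYAP/TAZ#1, 13 to 19 in siYAP/TAZ#2 and 7 to 18 in siCo libraries, and all groups overlapped. Its changes were 0.11 ± 0.344 with siYAP/TAZ#1 (95% interval -0.63 to 0.84, adjusted p = 0.849) and 0.14 ± 0.346 with siYAP/TAZ#2 (-0.59 to 0.88, adjusted p = 0.79). At this depth the intervals include changes in either direction, and do not include changes as large as those of CCN1, CCN2 or CCN3.

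CCN6 (WISP3; ENSG00000112761, chromosome 6, 112054072 to 112070969, plus strand), whose loss causes a heritable cartilage disease, did not pass the filter. Its estimated counts were 0, 1, 3.01 and 2 in siYAP/TAZ#1 libraries, 8, 5.02, 4 and 5 in siYAP/TAZ#2 libraries, and 7.01, 0, 1 and 1 in siCo libraries. The counts were highest in siYAP/TAZ#2, but siCo replicate 1 lay within that range, and no test was made. TUBE1 overlaps the end of CCN6 on the other strand. It had 110.4 to 144.8, 112.2 to 134.9 and 90.5 to 131.5 estimated counts in siYAP/TAZ#1, siYAP/TAZ#2 and siCo libraries. Without strand information reads in the overlap cannot be told apart. A count of 0 in these libraries allows up to 3 counts, or 0.0784 to 0.101 CPM.

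On TPM, which is per length, the order of the members was not the same in the groups. In siCo cells CCN1 had 45.8 to 72.1 TPM, CCN2 4.95 to 7.02, CCN5 2.81 to 4.42, CCN3 0.927 to 1.5, CCN4 0.0569 to 0.198 and CCN6 0 to 0.0572 TPM, and only CCN4 and CCN6 overlapped as neighbours in this order. In siYAP/TAZ#1 cells CCN1 had 7.65 to 12.8 TPM, followed by CCN5 with 3.16 to 5.53 and CCN3 with 2.39 to 6.09 TPM, which overlapped, and CCN2 with 0.654 to 1.32 TPM. In siYAP/TAZ#2 cells CCN1 had 8.21 to 12.5 TPM, CCN3 2.26 to 4.63 and CCN5 2.37 to 3.66 TPM, which overlapped, and CCN2 1.23 to 2.18 TPM. CCN2 therefore stood next to CCN1 in siCo cells and below CCN3 and CCN5 in both knockdowns.

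The summed TPM of the family was 18.8 ± 4.82 in siYAP/TAZ#1, 18.9 ± 3.38 in siYAP/TAZ#2 and 69.0 ± 12.8 in siCo (SD, n = 4 each). CCN1 made up 54.8% ± 5.73, 54.2% ± 1.0 and 83.8% ± 0.889 of that sum, and CCN2 5.03% ± 0.809, 8.73% ± 1.33 and 8.94% ± 0.47. CCN3 made up 18.6% ± 5.26, 19.4% ± 4.35 and 1.76% ± 0.219. The share of CCN5 was 20.7% ± 0.538, 16.0% ± 2.67 and 5.22% ± 0.49. The knockdown cells thus had a smaller CCN pool in which CCN3 and CCN5 took larger shares, although CCN5 itself did not rise in CPM. The most abundant gene of a library took 5.99% to 19.7% of its TPM, and was MIR3648-2 in all libraries but replicate 4 of siYAP/TAZ#1 and siYAP/TAZ#2, where it was ENSG00000264063. This share was lowest in replicate 4 of each group, where the family sum was highest in every group. Shares within the family do not depend on that total.

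**Figure D4:**
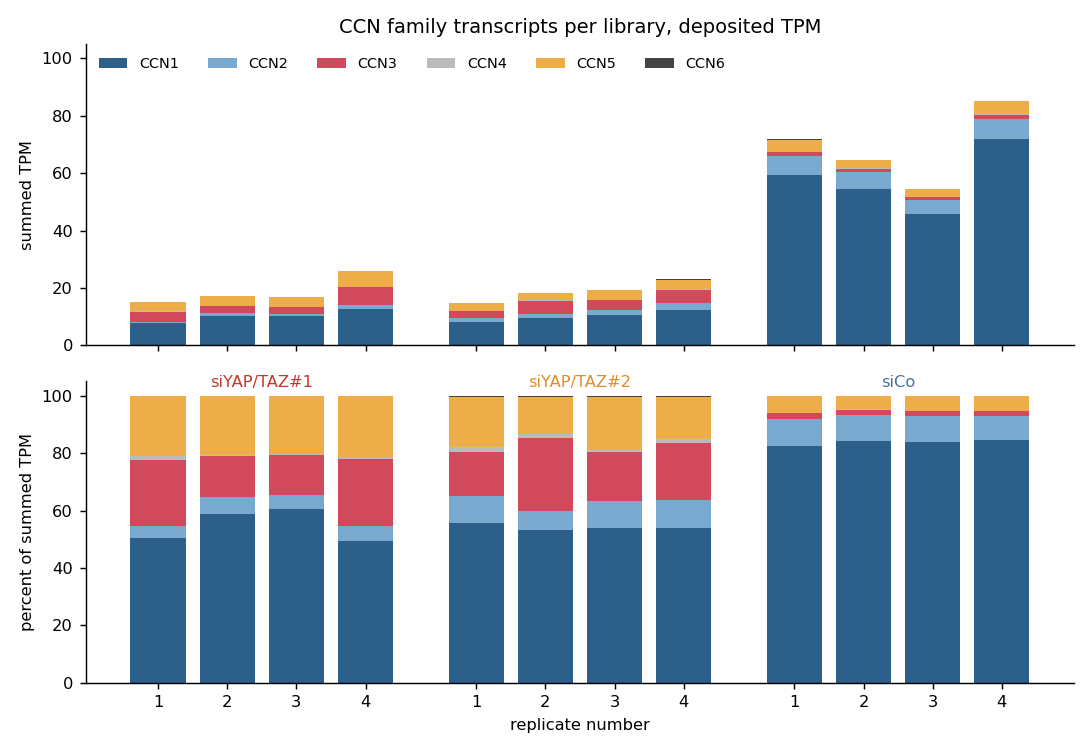
Deposited TPM of the CCN genes in each library, as a stacked sum (upper panel) and as percent of that sum (lower panel), for replicates 1 to 4 of siYAP/TAZ#1, siYAP/TAZ#2 and siCo. The sums are 15.2 to 25.9, 14.8 to 23 and 54.6 to 85.0 TPM, and CCN1 holds over 80% of the sum in siCo libraries alone.

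CCN1 and CCN2 were set among other genes that YAP and TAZ are known to activate. Of the other 20 genes of a published YAP/TAZ target signature, 20 fell with siYAP/TAZ#1 and 20 with siYAP/TAZ#2 and none rose, with medians of -1.01 and -0.74, where 18.5% and 19.2% of all genes fell. Without TMM factors 19 and 17 fell, and on log2(TPM + 1) 7 and 5 fell, with none higher. Within the full signature of 22, CCN2 and CCN1 had the lowest and next lowest change with siYAP/TAZ#1, ahead of the ankyrin repeat gene ANKRD1 (-2.53), TGFB2 (-2.26) and the angiomotin AMOTL2 (-2.21). With siYAP/TAZ#2 CCN1 was lowest, beside ANKRD1 (-2.92) and AMOTL2 (-2.63), and CCN2 followed. Among all 21581 genes tested, CCN2 and CCN1 ranked 5 and 7 from the lowest change with siYAP/TAZ#1 and 23 and 6 with siYAP/TAZ#2.

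Over the 12 libraries, among 15457 genes with a mean of at least 1 CPM, the levels most like CCN1 by Pearson correlation of log2 CPM were those of YAP1 (r = 0.999), WWTR1 (0.997), the kinase gene PLK2, the ubiquitin ligase gene SMURF2 and FAM91A1 (0.995 each). Those most like CCN2 were the transglutaminase gene TGM2 and RBM24 (0.993 each), STAT3 and the urokinase receptor gene PLAUR (0.992 each) and ABCF2 (0.99). The libraries share the split into treated and control cells, which sets most of these values. Between siYAP/TAZ#1 and siYAP/TAZ#2 the genes listed for CCN1 had differences from -0.02 to 0.19 and those for CCN2 from -0.55 to -0.07, values that follow in part from the choice, since the correlation used the libraries of both combinations.

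The tally of transcription factors and cofactors reported to act on CCN promoters depended on the scale. After TMM scaling, 10 of 18 fell and 3 rose with siYAP/TAZ#1, where 18.5% of all genes were lower and 16.4% higher. With siYAP/TAZ#2, 12 fell and 1 rose, where 19.2% of all genes were lower and 19% higher, and the medians were -0.25 and -0.35. Without TMM factors the counts were 6 lower and 5 higher with siYAP/TAZ#1, and 9 lower and 3 higher with siYAP/TAZ#2. On log2(TPM + 1) only 1 was lower and 1 higher with either combination, and the medians were 0.16 and 0.12. TEAD1 (-0.58 ± 0.065 and -0.54 ± 0.065) and TEAD4 (-0.60 ± 0.106 and -0.64 ± 0.107) fell with both combinations, although TEAD1 was at 0.03 with siYAP/TAZ#2 on log2(TPM + 1). TEAD2 had 0.01 ± 0.066 and -0.38 ± 0.067 (edgeR, adjusted p = 0.939 and 2.71e-04). TEAD3 had 0.37 ± 0.119 and 0.28 ± 0.12 (edgeR, adjusted p = 0.0237 and 0.0809). The calls on TEAD2 with siYAP/TAZ#2 and on TEAD3 with siYAP/TAZ#1 were lost on log2(TPM + 1). Serum response factor, SRF, fell by 0.92 ± 0.086 and 0.54 ± 0.085. The AP-1 subunit FOSL1 (-2.18 and -2.30), its partner JUN (-0.86 and -0.65) and ETS1 (-1.24 and -1.33) fell as well, while FOS rose by 1.20 and 1.14. FOSL1 and FOS kept both calls on log2(TPM + 1), and TEAD1, TEAD4, SRF, JUN and ETS1 were called with neither combination. SMAD4, the common partner of TGF-beta and BMP signals, stood at -0.03 with either combination (adjusted p = 0.75 and 0.748). SMAD2 (-0.34 ± 0.078 and -0.32 ± 0.078) and SMAD3 (-0.16 ± 0.06 and -0.79 ± 0.06) were called lower with both combinations. On log2(TPM + 1) SMAD2 and SMAD3 were called with neither.

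The receptors that bind CCN proteins went both ways. Of 16, 15 could be tested, and 4 fell and 5 rose with siYAP/TAZ#1 while 5 fell and 2 rose with siYAP/TAZ#2 (medians 0.10 and -0.04). The shares of all genes were 18.5% lower and 16.4% higher, and 19.2% lower and 19% higher. Without TMM factors 2 were lower and 6 higher with siYAP/TAZ#1, and 3 lower and 5 higher with siYAP/TAZ#2. On log2(TPM + 1) none was called with siYAP/TAZ#1, and 1 was lower and 2 were higher with siYAP/TAZ#2. Syndecan 4, SDC4, a heparan sulfate proteoglycan that serves CCN1 and CCN2 as coreceptor, fell to 31.8 and 13.5 CPM in siYAP/TAZ#1 and siYAP/TAZ#2, against 63.8 CPM in siCo (-1.0 ± 0.066 and -2.24 ± 0.070). It was higher with siYAP/TAZ#1 than with siYAP/TAZ#2 by 1.24 ± 0.069 (adjusted p = 2.72e-09), opposite in direction to CCN2. Of the integrin subunits that pair to the αvβ3 and αvβ5 receptors, ITGAV fell with both (-1.05 ± 0.056 and -0.19 ± 0.055, the siYAP/TAZ#2 value being 0.33 on log2(TPM + 1)). ITGB3 had -0.16 ± 0.084 (adjusted p = 0.173) and fell with siYAP/TAZ#2 by 0.87 ± 0.087, and ITGB5 had 0.10 and 0.09 (adjusted p = 0.248 and 0.259). The endocytic receptor LRP1 rose by 0.28 ± 0.070 and 0.74 ± 0.070, and NOTCH1, the partner of CCN3, had 0.03 and 0.01 (adjusted p = 0.886 and 0.958). SDC4 and LRP1 kept their calls with siYAP/TAZ#2 on log2(TPM + 1) and not those with siYAP/TAZ#1, and ITGAV and ITGB3 were not called there.

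Of 12 growth factors and matrix proteins that bind CCN proteins, 10 were tested, of which 2 fell and 6 rose with siYAP/TAZ#1 and 1 fell and 5 rose with siYAP/TAZ#2 (medians 0.26 and 0.23), against 18.5% lower and 16.4% higher, and 19.2% lower and 19% higher, of all genes. Without TMM factors 1 was lower and 6 were higher with either combination, and on log2(TPM + 1) none was lower and 4 were higher with siYAP/TAZ#1, and 1 was lower and 5 were higher with siYAP/TAZ#2. VEGFA, which CCN2 can hold inactive, fell to 35.9 and 27.7 CPM in siYAP/TAZ#1 and siYAP/TAZ#2, against 66.0 CPM in siCo (-0.88 ± 0.071 and -1.25 ± 0.072). BMP4 rose by 1.13 ± 0.107 and 1.02 ± 0.108, fibronectin, FN1, by 0.82 and 0.76, and vitronectin, VTN, by 0.33 and 0.95. BMP4 and FN1 kept both calls on log2(TPM + 1), and VEGFA and VTN kept theirs with siYAP/TAZ#2. TGFB1 had -0.21 and 0.02 (adjusted p = 0.143 and 0.905). Of 12 proteases known to cleave CCN proteins, 8 were tested, and MMP7 (1.06 ± 0.122 and 0.43 ± 0.124) and the kallikrein gene KLK14 (1.34 ± 0.430 and 1.53 ± 0.429, at under 1 CPM) rose with both combinations. None fell, and the 2 called of 8 are 25%, below the 34.9% and 38.2% of all genes called. Without TMM factors 4 and 3 were higher, and on log2(TPM + 1) 2 and 1, with MMP7 not called with siYAP/TAZ#2.

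Other secreted families were set beside the CCN genes. Of 21 other matricellular genes, 14 were tested, and 3 fell and 7 rose with siYAP/TAZ#1 while 3 fell and 8 rose with siYAP/TAZ#2 (medians 0.52 and 0.70), against 18.5% lower and 16.4% higher, and 19.2% lower and 19% higher, of all genes. Scaled to library size only, 1 was lower and 8 were higher with siYAP/TAZ#1, and 2 lower and 8 higher with siYAP/TAZ#2. On log2(TPM + 1) none was lower, and 3 and 7 were higher. Osteopontin, SPP1, reached 157.7 and 120.8 CPM in siYAP/TAZ#1 and siYAP/TAZ#2, against 65.8 CPM in siCo (1.26 ± 0.085 and 0.88 ± 0.085). The proteoglycan gene SPOCK3 rose most of the list (2.3 and 2.61), at under 1 CPM in each group mean. SMOC1 (1.08 and 1.14), TNXB (1.07 and 1.04) and THBS3 (0.63 and 0.91) rose too, and TGFBI, an integrin ligand induced by TGF-beta, fell by 0.65 ± 0.059 and 0.73 ± 0.060. SPP1 and SMOC1 kept both calls on log2(TPM + 1), SPOCK3 and THBS3 kept theirs with siYAP/TAZ#2, and TNXB and TGFBI were called with neither combination. Of 14 other proteins with the growth factor binding module that opens each CCN protein, 12 were tested, and 3 fell and 2 rose with siYAP/TAZ#1 while 4 fell and 3 rose with siYAP/TAZ#2 (medians 0.05 and -0.09), called shares of 41.7% and 58.3% beside 34.9% and 38.2% of all genes. Scaled to library size only, 3 were lower and 4 higher with siYAP/TAZ#1, and 2 lower and 3 higher with siYAP/TAZ#2. On log2(TPM + 1) none was lower, and 4 and 3 were higher. CRIM1 (-1.10 ± 0.048 and -0.34 ± 0.047) and IGFBP3 (-0.98 ± 0.059 and -0.25 ± 0.058), both in the YAP/TAZ signature, fell, although both siYAP/TAZ#2 values were positive on log2(TPM + 1) (0.06 and 0.20). IGFBP1 fell by 0.94 and 0.56, and the protease gene HTRA3 rose by 1.10 and 1.62. Of these, HTRA3 kept both calls on log2(TPM + 1), and CRIM1, IGFBP3 and IGFBP1 were called with neither combination. The lowest changes among the tested genes of both lists were -1.10 for CRIM1 with siYAP/TAZ#1 and -0.73 for TGFBI with siYAP/TAZ#2, against -2.33 or lower for CCN1 and CCN2.

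**Figure D5:**
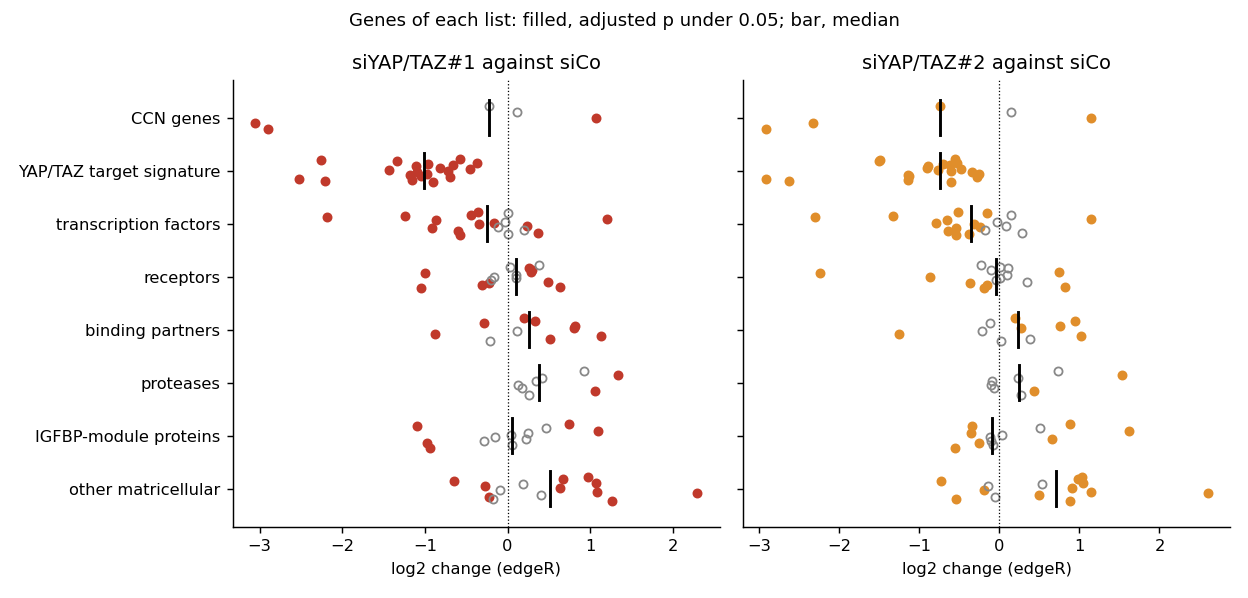
Log2 change of each tested gene of the lists (horizontal axis, 1 point per gene) for siYAP/TAZ#1 against siCo (left) and siYAP/TAZ#2 against siCo (right), filled where the adjusted p was under 0.05, with a bar at each list's median. CCN1 and CCN2 are the points left of -2 in the top row, all signature genes lie left of 0, and most points of the other matricellular list lie right of 0.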

How the data were processed

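RNA of 12 libraries was measured on a BGISEQ-500 platform, from RNA with an integrity number above 7, per the labels' protocols. The authors deposited estimated counts and TPM per Ensembl gene and library, and kallisto 0.4.6, Trim Galore 0.6.4 and the GRCh38.p13 assembly stand in the submitters' processing notes. The sources used here give neither strandedness nor how transcripts were summed to genes. Symbols were found for 60357 of 60617 identifiers, and GENCODE v29 (GRCh38) supplied the coordinates.

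Estimated counts were rounded, and edgeR 4.0.16 was run on them under R 4.3.3 (TMM, filterByExpr with its minimum count of 10, group as the only term over all 12 libraries, quasi-likelihood F test, Benjamini-Hochberg over 21581 genes), after a check on simulated counts. Standard errors are the change divided by the square root of F. A count of 10 was 0.25 to 0.375 CPM. DESeq2 1.42.0, limma 3.58.1 on log2 TPM and other settings were alternatives. Exact tests of single genes used log2(CPM + 0.5), and those of the ratio of CCN2 to CCN1 added nothing. Within groups, log2 CPM correlated at 0.979 to 0.991, and every pair of libraries differed by more than sampling noise (chi-square per degree of freedom 3.68 to 77.5).

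The members, the gene lists and the rule for named genes (of each list up to 6 genes called with both combinations, by the smaller change, and others whose role the text needs) were chosen with earlier results of these data known. Which list genes appear was settled after their values were seen. The rule was not followed in full. FBLN5, FBLN7, KAZALD1, ITGA2B, IGF2 and FBLN1 rose with both combinations, came within the first 6 of their lists and are not named above. ITGA5, ITGA6, NUAK2, LATS2 and F3 fell with both, came within the first 6 and are likewise not named above. THBS3 and TGFBI are named from outside the first 6. Promoters came from a RefSeq table that matched CCN2 and CCN6.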

Additional observations from a re-analysis of the deposited data

Results flagged for a closer look

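Effects against siCo that differed between the siRNA combinations were looked for in the 5 CCN genes tested. By edgeR's quasi-likelihood test of the difference itself 2 stood out, where 15.1% of all genes were called. The two-sided exact permutation p was 0.0571 for CCN2, whose groups overlapped, and 0.0286 for CCN5. CCN2 was lower with siYAP/TAZ#1 by -0.73 ± 0.168 (adjusted p = 0.00602), with 2.71 ± 0.713 CPM in siYAP/TAZ#1 and 4.49 ± 0.905 CPM in siYAP/TAZ#2. CCN5 was higher with siYAP/TAZ#1 by 0.51 ± 0.128 (adjusted p = 0.0112), with 7.09 ± 0.834 CPM in siYAP/TAZ#1 and 4.97 ± 0.944 CPM in siYAP/TAZ#2. In 27 groups of 4 values on the CPM scale, for the CCN genes, YAP1, WWTR1 and the ratio of CCN2 to CCN1, no library stood apart by Dixon's criterion. Estimated counts were not checked in this way, and those of CCN6 in siCo were 7.01 in replicate 1 and 0, 1 and 1 in the others.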

How the results depend on the processing

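The falls of CCN1 and CCN2 and the rise of CCN3 against siCo kept direction and call under all alternatives run, except that CCN3 with siYAP/TAZ#1 was at 0.99 (adjusted p = 0.0767 by limma) on log2(TPM + 1) with no filter. Without 1 library each, CCN1 ranged from -2.92 to -2.88 and -2.99 to -2.89 with siYAP/TAZ#1 and siYAP/TAZ#2, CCN2 from -3.24 to -2.95 and -2.42 to -2.21, and CCN3 from 0.98 to 1.14 and 1.11 to 1.19. On TPM, in the order log2(TPM + 1), log2(TPM + 0.1) and log2(TPM + 1) with no filter, CCN5 with siYAP/TAZ#1 was at 0.08, 0.10 and 0.08 and CCN4 at -0.01, -0.06 and -0.01, both opposite in sign to the counts. In that order CCN5 with siYAP/TAZ#2 was at -0.20, -0.26 and -0.20 (adjusted p 0.491 to 0.569). Between the combinations CCN1 was at -0.01 in each, CCN2 at -0.44, -0.75 and -0.44 (adjusted p 0.476 to 0.654) and CCN5 at 0.28, 0.36 and 0.28 (adjusted p 0.885 to 0.999), so that neither call held. Why TPM and counts differ was not tested.

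Without 1 library each, CCN4 ranged from -0.13 (without siCo replicate 1) to 0.31 with siYAP/TAZ#1, being at -0.00 without siYAP/TAZ#1 replicate 1, from -0.08 (without siCo replicate 1) to 0.36 with siYAP/TAZ#2, and from -0.15 to 0.16 between the combinations, where it was positive without siYAP/TAZ#1 replicate 3 (0.16) or siYAP/TAZ#2 replicate 4 (0.04). CCN1 between the combinations ranged from -0.01 (without siYAP/TAZ#2 replicate 2) to 0.09. CCN5 kept its calls, at -0.82 to -0.64 with siYAP/TAZ#2 and 0.41 to 0.59 between the combinations, as did CCN2 between the combinations at -0.91 to -0.61. The log2 ratio of CCN2 to CCN1 ranged from -0.36 to -0.08 with siYAP/TAZ#1, from 0.51 to 0.68 with siYAP/TAZ#2 and from -0.93 to -0.65 between the combinations, where the TPM ratio gave -0.80 (exact permutation p = 0.0286). CCN4 was not kept by a filter of 1 CPM in 4 libraries.

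Genes called lower and higher with siYAP/TAZ#1 numbered 1908 and 5876 with library size alone, and on the TPM settings in the order above 156 and 1736, 172 and 2137, and 100 and 775, against 3998 and 3531. With siYAP/TAZ#2 there were 2041 and 6534 with library size alone, 198, 207 and 137 lower on the TPM settings and 2002 higher with no filter, against 4144 and 4100. Between the combinations the TPM settings gave 78, 69 and 34 lower and 39, 49 and 18 higher, against 1769 and 1493, and leaving out 1 library gave 1291 to 2846 lower and 1196 to 2302 higher, most without siYAP/TAZ#2 replicate 1.

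Equal replicate numbers were not taken to pair the libraries, since same-numbered libraries' deviations from their group means did not all correlate positively (-0.405 to 0.531). As a hint from the data, 6 of 12 libraries matched best with their own number, among them the replicate 4 libraries, which correlated with each other at 0.426 to 0.531. Libraries with unequal numbers correlated at -0.569 to 0.55, beyond both ends of the range for equal numbers. With the replicate number as a block, edgeR called 4060 lower and 3561 higher with siYAP/TAZ#1, 4231 and 4036 with siYAP/TAZ#2, and 1747 and 1519 between the combinations, and no CCN call changed. In the paired sign-flip form of the block, the ratio of CCN2 to CCN1 with siYAP/TAZ#2 was at 0.57 with an exact p of 0.125, the smallest that 4 pairs allow.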

Other observations

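The tested genes next to the CCN loci had these changes, by edgeR's quasi-likelihood test. DDAH1 lies 2398 bases from CCN1 and had -0.19 ± 0.057 with siYAP/TAZ#1 and -1.04 ± 0.058 with siYAP/TAZ#2 (adjusted p = 0.0149 and 1.30e-09), and ZNHIT6 on the other side fell by 0.50 and 0.89. On either side of CCN2, the lincRNA gene ENSG00000236673 had -0.23 and -0.11 (adjusted p = 0.332 and 0.682) and the monooxygenase gene MOXD1 0.03 and 0.31 (adjusted p = 0.888 and 0.125). An antisense gene that overlaps the start of CCN2, ENSG00000227220, had 0 counts in siYAP/TAZ#1, up to 2 in siYAP/TAZ#2 and up to 3 in siCo libraries. Beside CCN3, SAMD12 rose by 0.88 ± 0.175 and 0.56 ± 0.178, while TAF2 had -0.44 and -0.12 (adjusted p = 0.00248 and 0.393). Beside CCN4, NDRG1 fell by 0.55 ± 0.074 and 1.20 ± 0.075, and TG had -0.23 and -0.02 (adjusted p = 0.745 and 0.979), at under 1 CPM. Beside CCN5, ADA had -0.05 and -0.13 (adjusted p = 0.52 and 0.103) and KCNK15 0.08 and -0.83 (adjusted p = 0.875 and 0.052), at under 1 CPM.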
